A study of Mus musculus with 20 samples.

Results

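Glycolysis splits glucose into pyruvate in the cytoplasm and yields ATP without oxygen. Hexokinases trap glucose in the cell, phosphofructokinases make the committed step, aldolases cut the sugar into a pair of triose phosphates, and phosphoglycerate kinase and pyruvate kinase make the ATP. Lactate dehydrogenase then interconverts pyruvate and lactate, and the isoenzymes of each step are known to differ between neurons and glia. In nervous tissue aldolase C is a familiar marker of astrocytes and some other cells, and neuron-specific enolase of neurons.

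The 10 enzymes described here were taken as a named set, by Ensembl identifier, from 37620 listed genes: Hk1, Hk2, Gpi1, Pfkm, Pfkp, Aldoa, Aldoc, Pgk1, Pkm (written Pkm2 in the older annotation) and Ldha. The set was chosen by name and not by a rule on measured values, but with earlier results of these data known. All 10 had a value in each of the 20 libraries and passed the filter on low values, Hk2 only through the male groups.

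The libraries came from male and female mice of 6 to 8 weeks that were homozygous for Trpv1tm2Bbm, a reporter allele that places nuclear β-galactosidase and an alkaline phosphatase under the control of the Trpv1 gene, so that all groups carry it. Dorsal root ganglia (DRG) were taken from the lumbar level (L4-L5), which holds somatic sensory neurons, and from the level called sacral (L6-S1), where somatic neurons are mixed with those that innervate the pelvic organs. The ganglia were dissociated and the cells with the brightest fluorescence from a β-galactosidase substrate were sorted. There were 4 groups of 5 libraries: male lumbar, male sacral, female lumbar and female sacral DRG, with both levels from each of 10 donors, and each donor label carries 2 animal numbers, so that a donor may stand for more than 1 mouse. The sort selects cells with β-galactosidase activity, and no library separates the visceral from the somatic neurons of the sacral level.

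Reads on genes ranged from 43506709 to 61833311 in lumbar and from 46052739 to 65553051 in sacral libraries, and genes of the mitochondrial genome took 37.7% to 60.9% of them in lumbar and 21.9% to 42.1% in sacral libraries. The defining markers of the sorted neurons were present in every library: Trpv1, the capsaicin receptor, lay between 3.14 and 5.14 log2 RPKM, and 8 of 10 markers of Trpv1 and peptidergic neurons were higher in sacral DRG and none in lumbar DRG. The sort also held RNA of other cells. All 10 markers of satellite glia and Schwann cells had a value in every library, 9 of 10 were higher in lumbar DRG, and their summed level was 1524 to 3140 RPKM in lumbar against 1009 to 1635 RPKM in sacral libraries. Markers of other cells, where tested, were called higher in lumbar DRG for 4 of 5 endothelial and mural genes, 3 of 3 red cell genes, 1 of 3 macrophage genes and 1 of 4 genes of large myelinated neurons, and higher in sacral DRG for 1 endothelial and mural gene. Of all genes tested, 30.3% were called higher in sacral and 15.3% higher in lumbar DRG, so the macrophage and large neuron counts are no result about those cells. The sacral means of Pvalb (-2.36), Alas2 (-2.15) and Hba-a1 (-2.16) lay below the filter of -1 log2 RPKM, so these lumbar calls are of genes tested through the lumbar groups. Fabp7, a satellite glia gene, averaged 9.46 log2 RPKM in lumbar and 8.09 in sacral DRG. In bulk RNA, fewer cells of a type and less RNA per cell cannot be told apart.

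The sequences just upstream of 3 of the genes are shown because they hold the letters ACGTG, a form of the core of the site that hypoxia-inducible factors bind. They are the 250 bases before the RefSeq start (build GRCm38.p6, 5′ to 3′ on the strand of the gene), with capitals at ACGTG or its reverse complement CACGT. The E-box, CACGTG, contains both and counts as a match on each strand. The windows lie at chr7:46845554-46845803 (Ldha, plus strand, the first of 2 RefSeq starts), chr6:82774455-82774704 (Hk2, minus strand) and chrX:106186850-106187099 (Pgk1, plus strand).
Ldha: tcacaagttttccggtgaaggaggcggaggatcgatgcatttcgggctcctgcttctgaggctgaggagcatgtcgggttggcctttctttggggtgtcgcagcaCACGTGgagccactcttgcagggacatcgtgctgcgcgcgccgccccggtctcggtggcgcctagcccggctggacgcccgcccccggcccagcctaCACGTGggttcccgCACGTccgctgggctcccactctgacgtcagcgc
Hk2: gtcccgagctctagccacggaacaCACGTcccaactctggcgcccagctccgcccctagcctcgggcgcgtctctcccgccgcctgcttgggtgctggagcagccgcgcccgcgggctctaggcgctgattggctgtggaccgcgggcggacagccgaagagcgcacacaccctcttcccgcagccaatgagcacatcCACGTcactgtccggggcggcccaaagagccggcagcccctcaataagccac
Pgk1: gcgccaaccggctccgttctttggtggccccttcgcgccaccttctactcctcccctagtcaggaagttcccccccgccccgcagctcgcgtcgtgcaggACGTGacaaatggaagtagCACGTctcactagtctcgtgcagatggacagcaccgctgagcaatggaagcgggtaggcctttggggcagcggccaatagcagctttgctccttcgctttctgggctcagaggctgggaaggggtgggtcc

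The Ldha window held 5 matches to ACGTG on both strands, 4 of them from its 2 E-boxes, and the Hk2 and Pgk1 windows held 2 each. The window at the other RefSeq start of Ldha held none. Of 32851 windows of the same length upstream of RefSeq starts, with 1 chromosome left out, 16.6% held at least 1 match and 6.81% at least 2. The latter share includes windows with a single E-box, whereas the Hk2 and Pgk1 windows held no E-box. CACGTG itself was in 6.02% of them. Windows of Aldoa, Pkm and Pfkm held 1 or 2 matches at 1 or more of their starts, and those of Hk1, Gpi1, Pfkp and Aldoc held no ACGTG. Other forms of the core, such as GCGTG, were not searched, so a window without ACGTG may still hold them. A match is only a string of letters in this window.

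The enzymes spanned a wide range of levels. Per length, over all 20 libraries, Aldoa was highest at 7.63 ± 0.38 log2 RPKM (mean ± SD), followed by Ldha at 7.0 ± 0.32, Pkm at 5.82 ± 0.37, Aldoc at 5.48 ± 0.43, Gpi1 at 4.48 ± 0.39, Pfkp at 4.15 ± 0.48, Pfkm at 4.07 ± 0.34, Hk1 at 3.22 ± 0.45, Pgk1 at 3.01 ± 0.31 and Hk2 at -0.50 ± 1.24. Aldoa ranked first, Ldha second and Hk2 last in every library. The neighbours Pkm and Aldoc, Pfkp and Pfkm, and Hk1 and Pgk1 differed by less than the SD of their difference over libraries, and the other neighbours by more. Aldoa lay above 99.4% of the 17138 genes with a value in all libraries and Hk2 above 19.6% of them. The submitters counted only reads that mapped to a single place, and the share of 50-base stretches of the exons that occur more than once in the genome was 68.3% for Pgk1, 40.2% for Pkm, 17% for Ldha, 8.62% for Gpi1, 6.17% for Aldoa and at most 0.0279% for the other members. The places of Pgk1 and Pkm in this order are therefore uncertain.

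Between the spinal levels, 9 of the 10 enzymes were higher in sacral DRG and 1, Aldoc, was higher in lumbar DRG, all past an adjusted p of 0.05 in limma. Of all 16304 genes tested, 30.3% were called higher in sacral and 15.3% higher in lumbar DRG, or 45.6% in all. The median difference (lumbar minus sacral, log2) was -0.61 over the 10 enzymes and -0.11 over all genes tested. Summed over the 10 enzymes, expression was 352, 413 and 535 RPKM (lowest, median, highest) in the 10 lumbar libraries and 537, 605 and 645 RPKM in the 10 sacral libraries. The lowest sacral library thus lay just above the highest lumbar one. In each donor 8 or 9 of the 10 enzymes were higher at the sacral level. With the mean of the glial markers as a covariate, none of the 10 was called. In that fit 0.509% of all genes were called higher in sacral and 0.0184% higher in lumbar DRG. Losing the 10 calls is therefore no result about these enzymes. The glial mean was itself higher in lumbar DRG in 10 of 10 donors, so the covariate and the level cannot be told apart. With the covariate Hk2 was at -1.65 and Pgk1 at -0.43, further from 0 than on the deposited scale. The other 8 lay between -0.33 and 0.13, closer to 0.

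**Figure D1:**
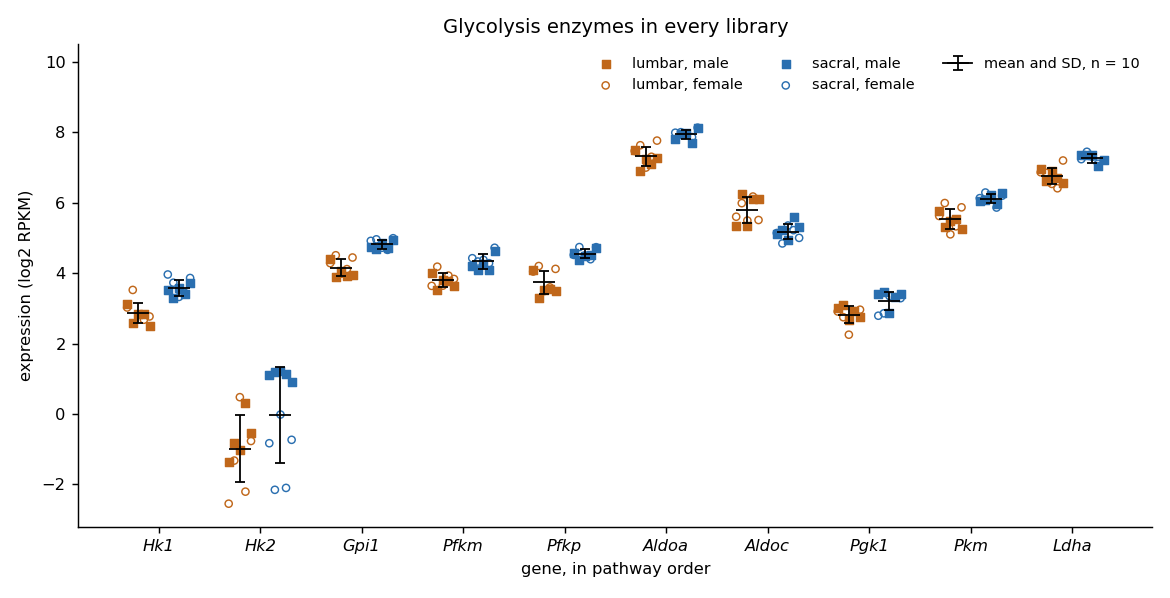
Expression (log2 RPKM, vertical axis) of the 10 enzymes in every library, with lumbar libraries in orange and sacral in blue, males as filled squares and females as open circles, and black bars for the mean and SD of 10 libraries. Aldoc is the one gene whose lumbar mean (5.79) lies above its sacral mean (5.17), and Hk2 has the widest scatter.

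The hexokinases start the pathway. Hk1 (ENSMUSG00000037012, mm9 chr10:61731603-61842656, minus strand), the main hexokinase of brain and nerve, was at 2.5, 2.82 and 3.52 log2 RPKM (lowest, median, highest) in lumbar and at 3.28, 3.54 and 3.96 in sacral libraries. It was higher at the sacral level in 10 of 10 donors, although the ranges overlapped. The difference was -0.71 ± 0.10 (lumbar minus sacral, log2, SE; adjusted p = 2.33e-05), or 1.64-fold higher in sacral DRG. Hk2 (ENSMUSG00000000628, mm9 chr6:82675019-82724448, minus strand), the insulin-responsive hexokinase of muscle and fat and the form many tumours induce, was at -2.54, -0.93 and 0.48 log2 RPKM in lumbar and at -2.15, 0.45 and 1.21 in sacral libraries, from 39 to 838 reads. Its difference was -0.95 ± 0.31 (adjusted p = 0.0159), with 8 of 10 donors higher at the sacral level. Its groups overlapped widely, and the call rested on the female donor labelled replicate 1, without which the difference was -0.75 (adjusted p = 0.0513).

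The sugar phosphate steps shared 1 direction. Gpi1 (ENSMUSG00000036427, mm9 chr7:34987141-35015308, minus strand), glucose-6-phosphate isomerase, was at 3.89, 4.08 and 4.5 log2 RPKM in lumbar and at 4.66, 4.80 and 4.99 in sacral libraries. The ranges of Gpi1 did not overlap, and the difference was -0.66 ± 0.07 (adjusted p = 2.12e-06). Pfkp (ENSMUSG00000021196, mm9 chr13:6579014-6648023, minus strand), the platelet type of phosphofructokinase, was at 3.30, 3.57 and 4.2 log2 RPKM in lumbar and at 4.37, 4.51 and 4.74 in sacral libraries. Its ranges were separate as well, with a difference of -0.81 ± 0.09 (adjusted p = 2.63e-06). Non-overlapping groups with the sacral level higher were found for 1.34% of the 15318 tested genes with a value in all libraries. Pfkm (ENSMUSG00000033065, mm9 chr15:97923020-97962878, plus strand), the muscle type, was at 3.53, 3.79 and 4.18 log2 RPKM in lumbar and at 4.08, 4.30 and 4.72 in sacral libraries. It overlapped between the levels, was higher in the sacral library of 10 of 10 donors and differed by -0.54 ± 0.09 (adjusted p = 5.04e-05).

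The aldolases moved apart. Aldoa (ENSMUSG00000030695, mm9 chr7:133938748-133944265, minus strand), the ubiquitous and muscle form, was at 6.91, 7.28 and 7.76 log2 RPKM in lumbar and at 7.70, 7.96 and 8.12 in sacral libraries. It was higher in the sacral library of 10 of 10 donors, with a difference of -0.63 ± 0.08 (adjusted p = 1.07e-05) or 1.54-fold, and its ranges overlapped. Aldoc (ENSMUSG00000017390, mm9 chr11:78136470-78141283, plus strand), the brain form, was at 5.32, 5.79 and 6.25 log2 RPKM in lumbar and at 4.84, 5.17 and 5.58 in sacral libraries. It was higher in the lumbar library of 10 of 10 donors, with overlapping ranges and a difference of 0.62 ± 0.12 (adjusted p = 0.000271). All 10 donors pointed that way for 6.55% of the genes with a value in all libraries, and to the sacral level for 14.6% of them. The mean of the glial markers was also higher in the lumbar library of 10 of 10 donors, by 0.92 ± 0.26 (SD, log2). With that mean as a covariate the Aldoc difference was 0.13 (adjusted p = 0.892), in a fit that called 86 of 16304 genes. The covariate and the level cannot be told apart, and a link between glial RNA and Aldoc was not tested.

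The ATP-making and lactate steps were higher at the sacral level. Pgk1 (ENSMUSG00000062070, mm9 chrX:103382439-103399038, plus strand), phosphoglycerate kinase, was at 2.25, 2.91 and 3.08 log2 RPKM in lumbar and at 2.79, 3.32 and 3.46 in sacral libraries, from 505 to 1475 reads. Its difference was the smallest of the 10, -0.38 ± 0.10 (adjusted p = 0.00421), with 9 of 10 donors higher at the sacral level. Pkm (ENSMUSG00000032294, mm9 chr9:59504383-59527182, plus strand), whose splice forms are the M1 and M2 pyruvate kinases and were not separated here, was at 5.10, 5.51 and 5.99 log2 RPKM in lumbar and at 5.86, 6.13 and 6.29 in sacral libraries. The difference was -0.59 ± 0.09 (adjusted p = 4.61e-05). Ldha (ENSMUSG00000063229, mm9 chr7:54096845-54110997, plus strand), the lactate dehydrogenase subunit that prevails in muscle, was at 6.41, 6.76 and 7.19 log2 RPKM in lumbar and at 7.03, 7.27 and 7.44 in sacral libraries, and differed by -0.50 ± 0.08 (adjusted p = 7.78e-05). Both Pkm and Ldha overlapped slightly between the levels and were higher in the sacral library of 10 of 10 donors. For Ldha, in 1 donor the paired libraries were nearly equal (a difference of -0.00089).

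The rest of the pathway was read from a list of 18 other glycolysis enzymes, of which 11 passed the filter on low values. Of these, 5 were higher in sacral DRG, 2 in lumbar DRG and 4 did not pass the test, with a median difference of -0.30. Of all genes tested, 30.3% were higher in sacral and 15.3% higher in lumbar DRG, with a median difference of -0.11. Those higher at the sacral level were Eno2, the neuron-specific enolase (-0.84 ± 0.10, adjusted p = 3.73e-06), Pfkl, the liver phosphofructokinase (-0.55 ± 0.10), Tpi1, triose phosphate isomerase (-0.53 ± 0.07), Pgam1, phosphoglycerate mutase (-0.51 ± 0.09), and Eno1, the widely expressed enolase (-0.44 ± 0.08). At the lumbar level Ldhb, the heart-type lactate dehydrogenase subunit, was higher in 10 of 10 donors (0.37 ± 0.09, adjusted p = 0.00293). The other was Gapdhs, the sperm form of glyceraldehyde-3-phosphate dehydrogenase (0.89 ± 0.30, adjusted p = 0.0207), which had only 22 to 176 reads per library. Gapdhs passed the filter (a mean above -1) only through its lumbar groups, at -0.62 in males and 0.20 in females. Its sacral means were -1.05 and -1.15, so its call is no support for a lumbar direction. Gapdh differed by -0.23 ± 0.17 (adjusted p = 0.293), Eno3 by -0.30 ± 0.14 (adjusted p = 0.0848), Pgam2 by 0.04 ± 0.30 (adjusted p = 0.925) and Bpgm by 0.03 ± 0.13 (adjusted p = 0.890). Uniquely mapped reads cover Gapdh and Pgam1 poorly, since 50.2% and 91.1% of their exonic 50-base stretches recur in the genome. Hk3, Hkdc1, Pgk2, Pklr and Ldhc were among those too low to test.

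**Figure D2:**
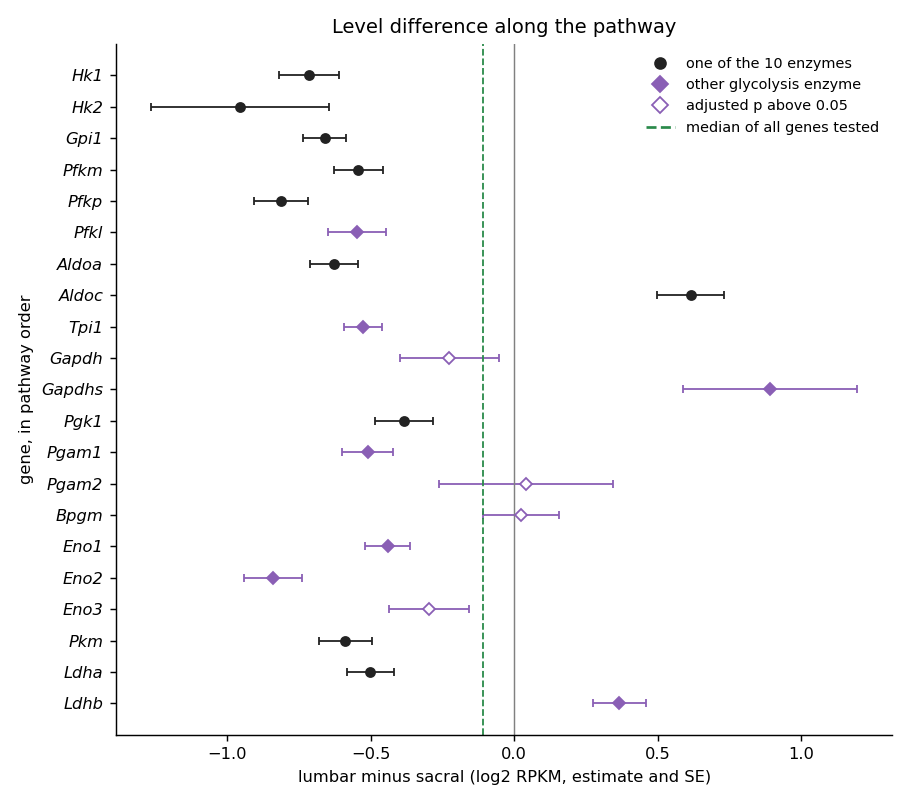
Difference between the levels (lumbar minus sacral, log2, horizontal axis) with its SE for the 10 enzymes (black circles) and the 11 tested other glycolysis enzymes (violet diamonds, open where the adjusted p is above 0.05), in pathway order, with the median of all genes tested (-0.11) dashed. Aldoc, Gapdhs and Ldhb are the 3 called genes to the right of 0, and Gapdhs passed the filter on low values only through the lumbar groups.

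Ratios of isoenzymes within a library do not depend on the scaling between libraries, and 5 were compared by an exact permutation test that swaps the levels within donors (two-sided, 10 donors, smallest possible p = 0.002), with adjustment over the 5. The log2 ratio of Aldoa to Aldoc was 0.66, 1.57 and 2.25 (lowest, median, highest) in lumbar and 2.12, 2.76 and 3.16 in sacral libraries. It was lower at the lumbar level in 10 of 10 donors, by a mean of -1.24 ± 0.14 (lumbar minus sacral, SE; exact adjusted p = 0.00326). As a share, Aldoc made up 26.3% ± 7.1 (SD, n = 10) of the summed RPKM of Aldoa and Aldoc in lumbar and 12.9% ± 2.5 in sacral DRG. The lactate dehydrogenase subunits did likewise. The log2 ratio of Ldha to Ldhb was 1.80, 2.31 and 3.01 in lumbar and 2.55, 3.21 and 3.58 in sacral libraries. The difference was -0.87 ± 0.12, with 10 of 10 donors in that direction (exact adjusted p = 0.00326). Ldhb made up 17% ± 4.2 of the pair in lumbar and 9.97% ± 2.06 in sacral DRG. Of exonic 50-base stretches, 26.7% recur in the genome for Ldhb and 17% for Ldha, so the size of these shares is uncertain. The genes of both pairs were already called in opposite directions, so these exact tests largely restate those calls. How often ratios of other gene pairs would pass was not computed. Single genes pointed to the sacral level in all 10 donors for 14.6% and to the lumbar level for 6.55%.

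The neuron-specific enolase took a larger share at the sacral level. The log2 ratio of Eno1 to Eno2 was -2.86, -2.59 and -2.33 in lumbar and -3.29, -3.06 and -2.69 in sacral libraries, a difference of 0.40 ± 0.06 with 10 of 10 donors in that direction (exact adjusted p = 0.00326). Eno2 was thus 85.8% ± 1.5 of the pair in lumbar and 88.9% ± 1.3 in sacral DRG. Of exonic 50-base stretches, 20.7% recur in the genome for Eno1 and 0.38% for Eno2, so the size of these shares is uncertain. The phosphofructokinases differed less. The log2 ratio of Pfkm to Pfkp was -0.41, 0.15 and 0.33 in lumbar and -0.43, -0.17 and -0.02 in sacral libraries, a difference of 0.27 ± 0.10 in which 8 of 10 donors had the higher lumbar ratio (exact adjusted p = 0.0464). This call was lost when any 1 of 8 donors was left out, with exact adjusted p up to 0.0928. Pfkm, Pfkp and Pfkl made up 44.1%, 42.4% and 13.5% of the 3 phosphofructokinases in lumbar DRG and 40.5%, 47.0% and 12.5% in sacral DRG. The log2 ratio of Hk1 to Hk2 was 2.33, 3.70 and 5.57 in lumbar and 2.09, 3.07 and 5.88 in sacral libraries, a difference of 0.24 ± 0.37 with 6 of 10 donors positive (exact adjusted p = 0.516).

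**Figure D3:**
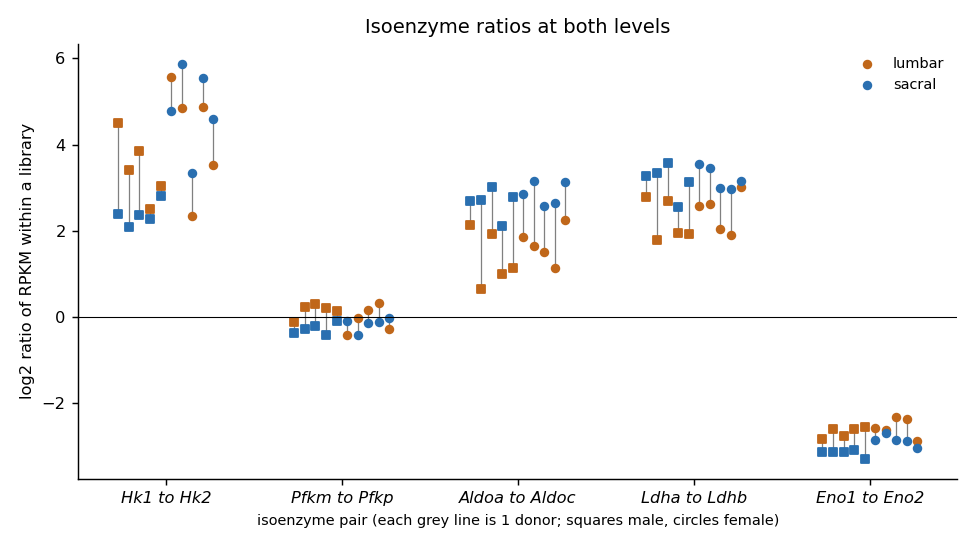
Log2 ratio of isoenzymes within a library (vertical axis) for 5 pairs, in lumbar (orange) and sacral (blue) libraries, with a grey line joining the libraries of 1 donor (squares male, circles female). For Aldoa to Aldoc and Ldha to Ldhb the blue point is above the orange one in 10 of 10 donors, and for Eno1 to Eno2 below it in 10 of 10.

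The sexes were compared within each level. None of the 10 enzymes passed the test in lumbar DRG, where limma called 7 of 16386 genes (0.0427%), or in sacral DRG, where it called 6 of 16321 (0.0368%). The female minus male differences of the 9 enzymes other than Hk2 lay between -0.13 and 0.30 (log2) at the lumbar level and between -0.17 and 0.17 at the sacral level. Hk2 stood apart in sacral DRG. Its male sacral libraries were at 1.11, 1.20, 1.21, 1.14 and 0.92 log2 RPKM and its female sacral libraries at -0.83, -2.15, -0.02, -2.10 and -0.73. All 5 male values lay above all 5 female values, as they did for 0.699% of the 15318 genes with a value in all libraries. Hk2 passed the filter (a mean above -1) only through the male groups, at -0.69 in lumbar and 1.11 in sacral DRG. Its female means were -1.27 and -1.16, so it was tested through the sex in which it was high. The female minus male difference was -2.28 (log2), with an unadjusted limma p of 0.00011, rank 15 of 16321 genes, and an adjusted p of 0.109. It was thus not called over all genes. The gene was singled out after its values were seen.

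At the lumbar level Hk2 overlapped between the sexes, with male values of -1.36, -0.83, -1.03, 0.32 and -0.53 log2 RPKM and female values of -2.54, -1.32, 0.48, -2.20 and -0.77. Male donors were higher at the sacral level in 5 of 5, and female donors in 3 of 5. Fitted in males alone the level difference of Hk2 was -1.80 and in females alone -0.11. The test of that contrast itself, the sex by level interaction, gave 1.70 (log2) with an adjusted p of 1.0, and limma called none of 16304 genes for it (0.0%, with 668 at an unadjusted p under 0.05 and a lowest adjusted p of 0.246). In reads, Hk2 had 555 to 838 per male sacral library and 68 to 376 per female sacral library. The mean of the glial markers was 4.98 to 6.01 log2 RPKM in male and 4.92 to 5.72 in female sacral libraries, and that of the neuronal markers 6.99 to 7.44 and 7.08 to 7.35, and neither separated the sexes.

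**Figure D4:**
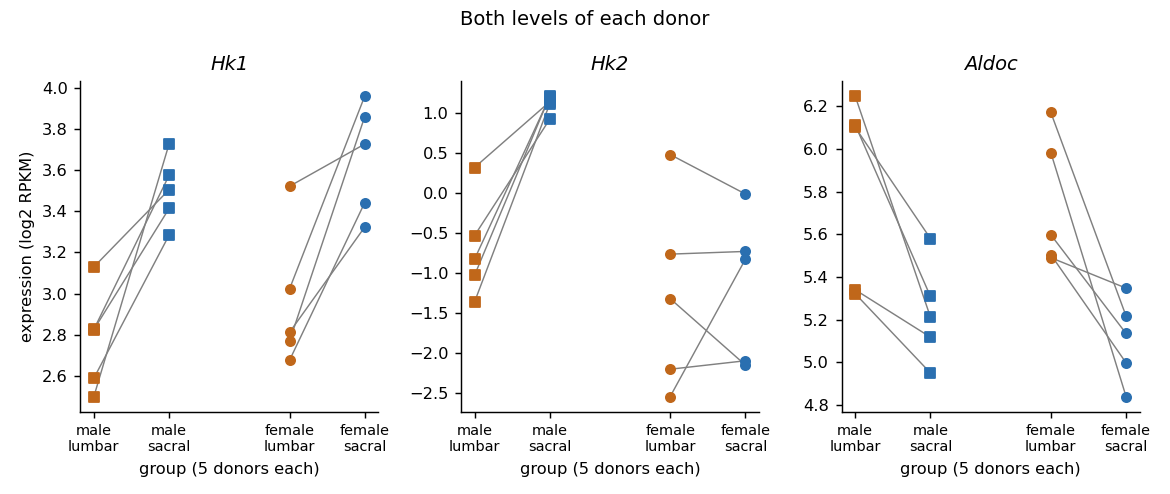
Expression (log2 RPKM, vertical axes with their own ranges) of Hk1, Hk2 and Aldoc in male (squares) and female (circles) DRG, with a line joining the lumbar (orange) and sacral (blue) library of each donor. The lines of Hk1 go up and those of Aldoc go down in 10 of 10 donors, and the male sacral values of Hk2 sit between 0.92 and 1.21, above all female sacral values.

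Genes that feed glycolysis or take its products were read from lists of related pathways. Over all genes tested 30.3% were higher in sacral and 15.3% in lumbar DRG, and counts near these shares, such as those of the transporters, the regulators and the hypoxia-inducible factor pathway, are no result about the list. Of 8 tested glucose and lactate transporters 2 were higher in sacral DRG, Slc2a3, the neuronal glucose transporter (-0.99 ± 0.13, adjusted p = 6.48e-06), and Slc2a12 (-0.46 ± 0.17). Of 4 tested regulators by fructose 2,6-bisphosphate and others, Tigar, a phosphatase that lowers it, was higher in sacral DRG (-0.60 ± 0.10). Glycogen genes were called in 7 of 9, all higher in sacral DRG, with the largest differences for Pgm2, a phosphoglucomutase (-0.84 ± 0.12), and Pygb, the brain glycogen phosphorylase (-0.78 ± 0.09). Of 7 genes of the pentose phosphate pathway 3 were higher in sacral DRG, led by Pgd (-0.42 ± 0.08) and G6pdx (-0.42 ± 0.09), and 2 in lumbar DRG, Rpia (0.93 ± 0.19) and Rpe (0.21 ± 0.08). Of 4 tested gluconeogenesis genes 2 were higher in sacral DRG, Pck2 (-0.45 ± 0.12) and G6pc3 (-0.34 ± 0.08).

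Downstream, 8 of 14 genes of pyruvate entry into mitochondria were higher in sacral DRG and 2 in lumbar DRG. The largest differences were those of Pdk3, a pyruvate dehydrogenase kinase (-0.55 ± 0.11), and Dlat, a pyruvate dehydrogenase subunit (-0.40 ± 0.07), against Pdk4, a kinase induced by fasting (0.91 ± 0.13), and Mpc1, a pyruvate carrier subunit (0.55 ± 0.18). Of 9 tested genes of the NADH shuttles 7 were higher in sacral DRG, led by the aminotransferases Got1 (-0.57 ± 0.07) and Got2 (-0.57 ± 0.09), and 1 in lumbar DRG, Gpd1, the cytoplasmic glycerol-3-phosphate dehydrogenase (1.34 ± 0.18, adjusted p = 9.14e-06). Of 15 tricarboxylic acid cycle genes 10 were higher in sacral DRG, led by Ogdh (-0.54 ± 0.09) and Sucla2, the ATP-forming succinyl-CoA ligase subunit (-0.52 ± 0.11), and 1 in lumbar DRG, Suclg2, its GTP-forming counterpart (1.05 ± 0.14). Of 12 genes of the hypoxia-inducible factor pathway 4 were higher in sacral DRG, led by Ankrd37 (-0.73 ± 0.27) and Hif1an (-0.51 ± 0.10), and 3 in lumbar DRG, led by Epas1, which encodes the second factor of the family (0.94 ± 0.12), and Vhl, which marks these factors for breakdown (0.52 ± 0.16). The median difference of these lists ran from -0.44 (glycogen) to -0.06 (hypoxia-inducible factors), beside -0.11 over all genes tested. Of those genes 30.3% were higher in sacral and 15.3% in lumbar DRG, so the hypoxia-inducible factor counts are no result about that list.

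The size of the differences depended on what the libraries were scaled to. With TMM factors on reads worked back from the deposited values, 10 of 10 enzymes kept their call and direction, with the median of all genes near 0 and 22.0% of genes higher in sacral against 21.0% higher in lumbar DRG. Scaled to total reads, 10 of 10 were also called, beside 59.4% of all genes higher in sacral and 7.89% higher in lumbar DRG. With quantile normalization 9 of 10 were called, without Pgk1 (-0.22, adjusted p = 0.0713), beside 21.1% of all genes higher in sacral and 18.8% higher in lumbar DRG. Scaled to reads outside the mitochondrial genome, 8 of 10 were called, and Hk2 (-0.73, adjusted p = 0.0689) and Pgk1 (-0.16, adjusted p = 0.200) were not, while the split of all genes turned to 14.3% higher in sacral and 28.7% in lumbar DRG. Relative to the mean of the neuronal markers, 4 of 10 were called: Aldoc (1.13) higher in lumbar DRG, and Pfkp (-0.30), Hk1 (-0.20) and Gpi1 (-0.14) higher in sacral DRG. On that scale Ldha was at 0.02 and Pgk1 at 0.13, and 3.55% of all genes were called higher in sacral and 58.9% higher in lumbar DRG. With the glial marker mean as a covariate the 10 directions were those of the deposited scale, with Hk2 at -1.65 (adjusted p = 0.322) and Hk1 at -0.26 (adjusted p = 0.676), and 0.509% of all genes were called higher in sacral and 0.0184% higher in lumbar DRG. That mean was itself higher in lumbar DRG in 10 of 10 donors, so that the covariate and the level cannot be told apart.

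**Figure D5:**
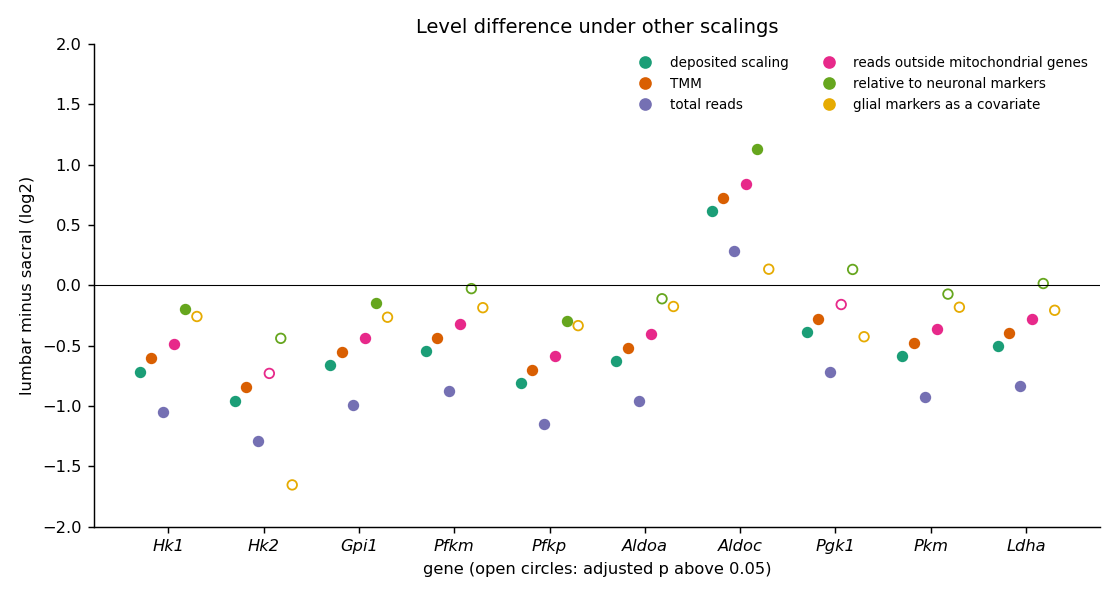
Difference between the levels (lumbar minus sacral, log2, vertical axis) of the 10 enzymes on the deposited scale and under 5 other fits, with open circles where the adjusted p is above 0.05. Aldoc stays above 0 in the 6 fits, and relative to neuronal markers Pgk1 (0.13) and Ldha (0.02) lie above 0 as well.

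On the opposite strand, annotated genes overlap Hk1, Hk2, Gpi1, Pfkm and Pfkp. The study's methods name amplification to cDNA and Nextera XT libraries, with no step that keeps strand, and do not say whether counting used strand. Reads from stretches shared with a partner may therefore not be told apart. The highest count of a partner in any library was 128 reads for that of Hk1, 27 for that of Hk2, 1084 for that of Gpi1, 902 for Senp1 opposite Pfkm and 2212 for Pitrm1 opposite Pfkp. The lowest counts of the enzymes were 1815, 39, 2613, 1404 and 3696 in that order.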

How the data were processed

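RNA of FACS-sorted cells from 20 libraries was amplified and sequenced. Per the labels and the study's methods, the authors mapped reads to mm9 with Subread, kept those that mapped uniquely, counted them on Ensembl genes and deposited log2 RPKM values scaled with TMM and voom, in which every library has the same median (0.93). For 98.5% of values whole reads (within 0.01) could be worked back, and these gave the read totals and the scaling alternatives. With TMM factors recomputed from these reads the median level difference over all genes was 0.00016, against -0.11 on the deposited scale. The deposited scale, with its equal medians, thus differs from that of the recomputed TMM factors. The precision of a value is limited by these reads and by 5 libraries per group.

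The deposited log2 values were fitted with limma 3.58.1 in R 4.3.3, using 4 group means, a random block for the donor (duplicateCorrelation) and a trend of variance on mean, and p-values were adjusted by Benjamini-Hochberg over every gene tested (threshold 0.05). Genes needed a mean above -1 log2 RPKM in at least 1 group, with at least 3 values. The fits were also run on simulated data. For the level test the planted changes were larger than those of the enzymes and in far fewer genes than were called here. That run therefore does not check the calls made here. Differences are lumbar minus sacral, or female minus male. The numbers in the labels pair the 2 levels of a donor: deviations from the group means correlated by 0.176 on average within donors (0.039 to 0.302, n = 10) and by -0.044 between donors. The p-values measure the spread between these donors. Isoenzyme ratios were tested by exact permutation. The members, lists and named genes (all members, all measured other glycolysis enzymes, and at most the 2 largest called changes in each direction from every other list) were chosen with earlier results of these data known. Promoter windows are from RefSeq, and repeated 50-base stretches were counted in NCBIM37. Alternatives changed the block, filter, pseudocount, scaling, weights, covariates and donors. Protein sequences were not used here.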

Additional observations from a re-analysis of the deposited data

Results flagged for a closer look

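Of the 40 sets of 5 libraries examined for the 10 enzymes, 1 held a library far from the rest. Pgk1 was at 2.87 log2 RPKM in the male sacral library of replicate 3, while the other 4 male sacral libraries lay between 3.32 and 3.46. Chance marks about 1 in 20 such sets. With that donor left out, the level difference of Pgk1 stayed past the threshold, as it did without each other donor (-0.44 to -0.29).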

How the results depend on the processing

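The level difference was called for 7436 genes, for 4591 in males alone and 3623 in females alone (each with 5 donors), and for 86 with the glial marker mean as a covariate. Of the 10 enzymes, 10 were called with donor as a block, 10 without the block or with donor as a fixed effect, 4 relative to neuronal markers and 0 with the glial covariate. The paired and unpaired fits thus called the same number of enzymes. Relative to neuronal markers Pgk1 (0.13) and Ldha (0.015) changed direction; the cause was not tested. The sex difference was called for 12 genes in lumbar DRG with a pseudocount of 1 RPKM, 4 without the trend and 4 with the glial covariate, and for 27 in sacral DRG with that pseudocount, 13 with 0.1 RPKM, 35 with voom and 27 with array weights. Hk2 was the 1 enzyme called between the sexes in sacral DRG with the pseudocount of 1 RPKM, voom or array weights, and without female replicate 3 (4 of 24 alternatives, adjusted p 0.00487 to 0.406). In the main fit it passed the filter only through the male groups. Leaving out 1 donor gave 3 to 9 sacral and 3 to 8 lumbar calls, with 0 to 1 enzymes. The ratio of Hk1 to Hk2 was -0.17 with a pseudocount of 1 RPKM and -0.60 in females alone. With 5 donors the smallest exact p is 0.0625, so no ratio could pass in 1 sex: in males Pfkm to Pfkp was 0.43, Aldoa to Aldoc -1.29, Ldha to Ldhb -0.94 and Eno1 to Eno2 0.49, and in females 0.11, -1.19, -0.79 and 0.31. Without 1 donor Pfkm to Pfkp was 0.23 to 0.33.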
